A study of Mus musculus with 8 samples.

Results

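A set of 9 effector genes of regulated cell death was followed in skeletal muscle of the *mdx5cv* mouse, which carries a *Dmd* mutation on the C57/Bl6 strain and develops muscular dystrophy. They were taken by symbol from the table of 55401 genes, and each symbol matched 1 row. They are *Ripk1*, *Ripk3*, *Mlkl*, *Gsdmd*, *Casp8*, *Casp12*, *Bax*, *Bak1* and *Bcl2*. The samples are 4 whole tibialis anterior (TA) muscles of wild type (WT) mice and 4 of *mdx5cv* mice, all male, 6 months old and on the same strain background. Stranded total RNA libraries of these 8 muscles had been sequenced, and the value of a gene in a muscle is a normalized count, which is its read count divided by a size factor for that library. Replicates are named by the number in the label, and nothing in the labels ties a number in 1 group to the same number in the other.

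Regulated cell death runs through several routes that share these proteins. In apoptosis, BAX and BAK1 perforate the outer mitochondrial membrane and BCL2 holds them in check, whereas death receptors act through caspase 8. In necroptosis, RIPK1 and RIPK3 assemble through a shared interaction motif when caspase 8 is not active, and RIPK3 phosphorylates MLKL, which then breaches the plasma membrane. In pyroptosis, inflammatory caspases cut gasdermin D, the product of *Gsdmd*, and its fragment forms pores. In muscle that lacks dystrophin, fibers go through cycles of necrosis and regeneration and the tissue fills with macrophages and other immune cells, many of which express the same genes.

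Reads counted in genes were between 13175524 and 14921057 per library. *Dmd* averaged 6954 ± 857 normalized counts over the WT muscles against 3964 ± 388 over those of *mdx5cv* (SD, n = 4), with no overlap of the groups, which fits the labels. All 10 mature fiber markers were well above the minimum for the test, and their summed normalized count was between 1118521 and 1332701 in WT and between 772385 and 1193011 in *mdx5cv*. Macrophage markers moved strongly with genotype. Of 10 such genes 9 were higher and 1, *Cd163*, was lower in *mdx5cv*, and their summed normalized count was between 584 and 908 in WT and between 3995 and 9606 in *mdx5cv*. The sum of 10 markers of regenerating fibers and satellite cells went from a range of 1151 to 1919 to a range of 5005 to 13024. The whole muscle was sequenced, so fewer cells of a type and less RNA per cell cannot be told apart, and neither can more cells and more RNA per cell.

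Of the 9 genes, 8 reached the minimum for the test, a normalized count of 10 averaged over the 8 muscles, and *Ripk3* was just under it at 8.91. In *mdx5cv* muscle 6 of the 8 were higher at an adjusted p under 0.05 (*Ripk1*, *Mlkl*, *Gsdmd*, *Casp8*, *Bax* and *Bak1*), 1 was lower (*Bcl2*) and 1 was not called (*Casp12*). Genes called at this threshold make up 40.9% of all genes tested, with 20.9% higher and 20.1% lower. With a minimum absolute log2 fold change of 1 as well, 3 of the 8 were higher (*Mlkl*, *Gsdmd* and *Casp8*) and 1 was lower (*Bcl2*), against 10.3% and 3.27% of all genes tested. The median log2 fold change of the 8 was 0.59, and that of all genes tested was 0.00. The values of the 2 groups did not overlap for 5 higher genes and 1 lower gene of the 8, where all genes tested give 40.1% in either direction, 20.3% higher and 19.8% lower. All adjusted p-values are from limma on log2(normalized count + 1) with Benjamini-Hochberg adjustment over 13677 genes, two-sided, and fold changes on this scale understate the change of genes with low counts.

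**Figure D1:**
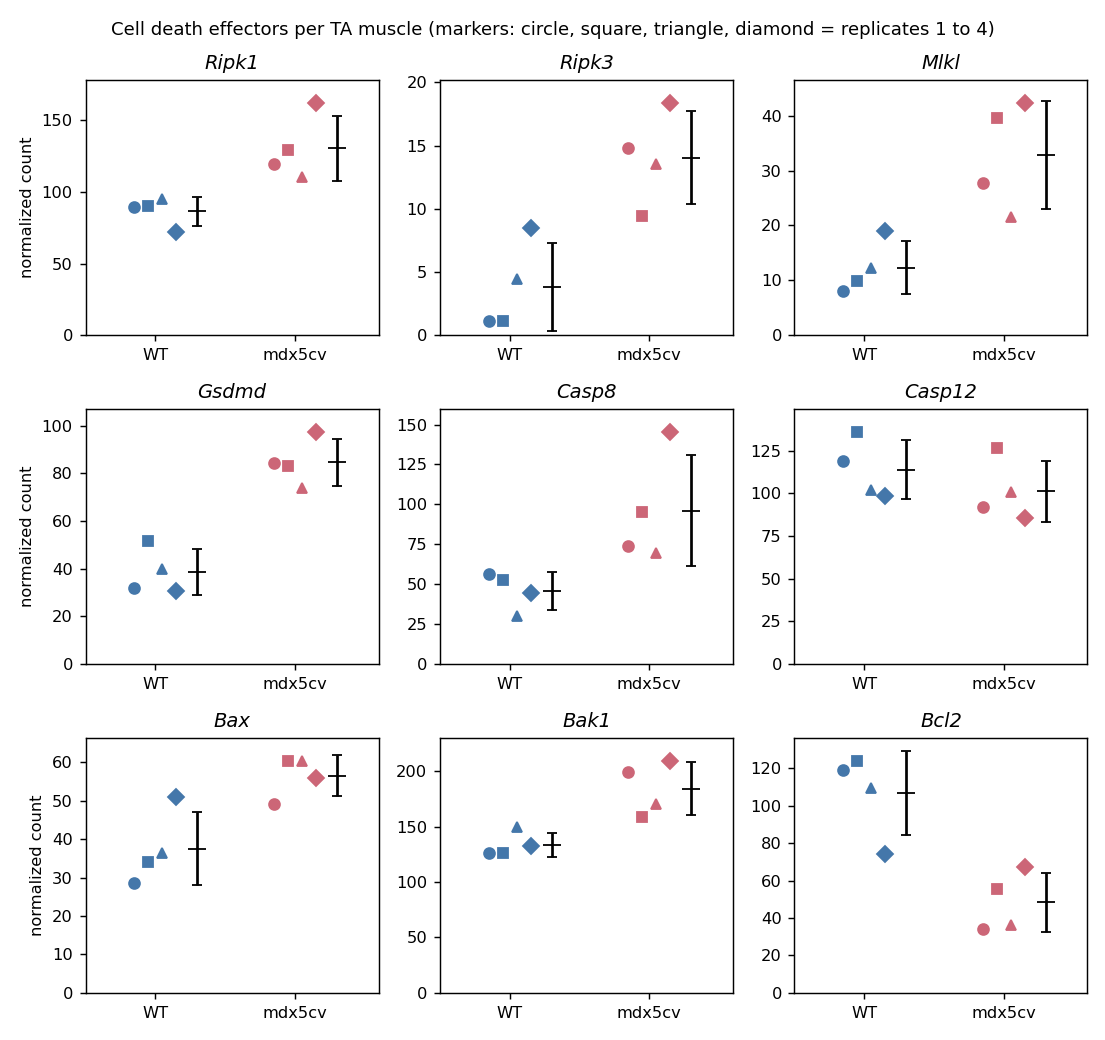
Normalized count (vertical axis, from 0) of each of the 9 genes in each of the 8 muscles, with WT in blue, *mdx5cv* in red, 1 marker shape per replicate number, and the mean with its SD in black. The *mdx5cv* muscles lie above every WT muscle for *Ripk1*, *Ripk3*, *Mlkl*, *Gsdmd*, *Casp8* and *Bak1*, below every WT muscle for *Bcl2*, and overlap with them for *Casp12* and *Bax*.

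The necroptosis genes *Ripk1*, *Ripk3* and *Mlkl* were all higher in *mdx5cv*. Within a muscle the ratios of *Ripk3* and of *Mlkl* to *Ripk1* overlapped between the groups. *Ripk1* encodes the kinase that sits in the tumor necrosis factor receptor complex and can direct a cell to survival, apoptosis or necroptosis. Its normalized counts were 89.4, 89.9, 95.1 and 72.0 in WT replicates 1 to 4 and 119.5, 129, 111 and 162 in *mdx5cv* replicates 1 to 4. The lowest *mdx5cv* muscle was above the highest WT muscle, and *mdx5cv* replicate 4 was highest of all. The mean rose from 86.6 ± 10.1 to 130.4 ± 22.5 (SD, n = 4), and the difference on the log2 scale was 0.58 ± 0.15 (SE, limma adjusted p = 0.00918). *Ripk1* lies on chromosome 13 from 34002363 to 34037147, plus strand (GRCm38, GENCODE M21), and 241 bases (2.89%) of its exons lie under exons of *Serpinb6a* on the opposite strand. A pseudogene on its own strand, *Gm17084*, shares 511 bases and is listed at 0 in all muscles. *Serpinb6a* had far higher counts, between 1684 and 2532 in WT and between 3156 and 3865 in *mdx5cv*, and whether the counting used the strand is not given in the sources used here.

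*Ripk3* encodes the kinase that commits a cell to necroptosis, and it had the fewest reads of the 9 genes. Its read counts were 1, 1, 4 and 8 in WT replicates 1 to 4 and 16, 10, 15 and 23 in *mdx5cv* replicates 1 to 4, which as normalized counts are 1.15, 1.10, 4.42 and 8.47 against 14.8, 9.43, 13.5 and 18.4. The groups did not overlap, but WT replicate 4 came close to *mdx5cv* replicate 2. With 14 reads in all WT muscles and 64 in all *mdx5cv* muscles, the ratio of the groups after scaling was 3.69, with an exact 95% interval of 2.05 to 7.12 that covers counting error only. An exact permutation test over the muscles gave a two-sided p of 0.0286, the smallest that 4 against 4 can give. In a limma fit with no filter on low values, *Ripk3* differed by 1.91 ± 0.52 on the log2 scale (SE, adjusted p = 0.0105), and 12.0% of the genes in that fit were higher at an adjusted p under 0.05. *Ripk3* (chromosome 14, 55784995 to 55788865, minus strand) shares no exon with another annotated gene.

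*Mlkl*, the pseudokinase that carries out necroptosis at the plasma membrane, had the largest log2 fold change of the 8 genes tested. Normalized counts of this gene were 8.02, 9.87, 12.2 and 19.1 in WT replicates 1 to 4 and 27.8, 39.6, 21.6 and 42.4 in *mdx5cv* replicates 1 to 4. The groups did not overlap, although WT replicate 4 and *mdx5cv* replicate 3 were near each other. The mean rose from 12.3 ± 4.83 to 32.8 ± 9.80 (SD, n = 4), a difference of 1.37 ± 0.31 on the log2 scale (SE, limma adjusted p = 0.00377). In WT muscle between 7 and 18 reads stood behind each value. *Mlkl* lies on chromosome 8 from 111311797 to 111338177, minus strand.

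*Casp8* encodes the initiator caspase of the death receptors, which also cuts RIPK1 and RIPK3 and so restrains necroptosis. Its normalized counts were 56.2, 52.7, 29.9 and 44.5 in WT replicates 1 to 4 and 74.1, 95.3, 69.3 and 145 in *mdx5cv* replicates 1 to 4. No *mdx5cv* muscle was as low as any WT muscle, and *mdx5cv* replicate 4 stood well above the others. The mean rose from 45.8 ± 11.7 to 96.0 ± 34.8 (SD, n = 4), and the difference on the log2 scale was 1.03 ± 0.25 (SE, limma adjusted p = 0.00555). It was 0.81 without *mdx5cv* replicate 4 and 0.84 without WT replicate 3, so that *Casp8* kept its adjusted p under 0.05 but not a log2 fold change of 1. *Casp8* lies on chromosome 1 from 58795374 to 58847503, plus strand. Within each muscle *Casp8* was at 0.536 ± 0.149 of the normalized count of *Ripk1* in WT and at 0.720 ± 0.129 in *mdx5cv* (SD, n = 4), and the ranges of this ratio overlapped.

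*Gsdmd*, whose product forms the pores of pyroptosis, had the lowest adjusted p of the 8 genes tested. Normalized counts of this gene were 32.1, 51.6, 39.8 and 30.7 in WT replicates 1 to 4 and 84.3, 83.0, 73.8 and 97.5 in *mdx5cv* replicates 1 to 4. The gap between the groups was wider than the range of the WT muscles. The mean rose from 38.5 ± 9.55 to 84.7 ± 9.74 (SD, n = 4), a difference of 1.14 ± 0.19 on the log2 scale (SE, limma adjusted p = 0.000447). *Gsdmd* lies on chromosome 15 from 75862327 to 75867408, plus strand, and shares no exon with another annotated gene.

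**Figure D2:**
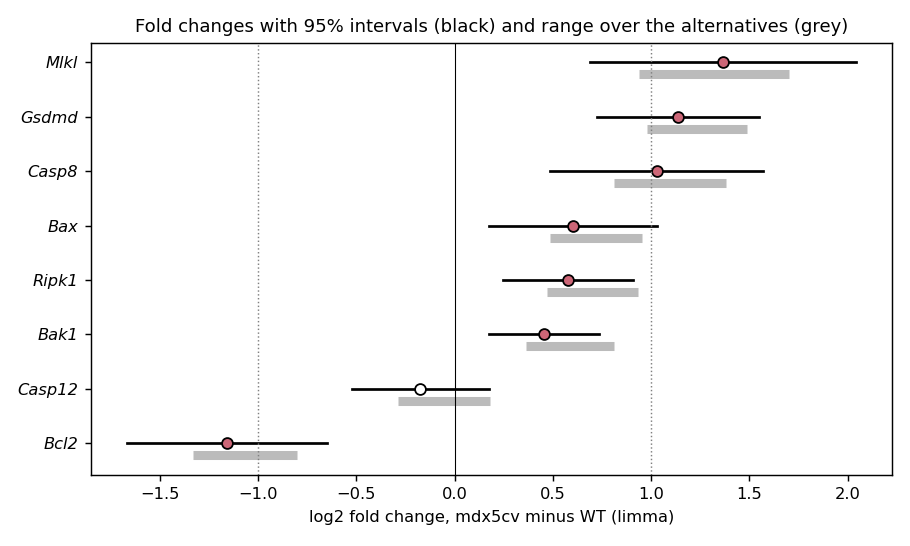
Log2 fold change of *mdx5cv* against WT (horizontal axis) for the 8 genes tested, with filled circles at an adjusted p under 0.05, black lines for the 95% interval from limma and grey bars for the range over the alternative settings. *Bcl2* lies at -1.16 on the lower side and *Mlkl* at 1.37 on the higher side, and only for *Casp12* does the black line cross 0.

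The mitochondrial genes moved in opposite directions, with *Bcl2* lower and the pore-forming *Bax* and *Bak1* higher in *mdx5cv*. *Bcl2* encodes the founding pro-survival member of its family, which binds BAX and the BH3-only proteins. Its normalized counts were 119, 124, 109 and 74.2 in WT replicates 1 to 4 and 34.3, 55.7, 36.0 and 67.1 in *mdx5cv* replicates 1 to 4. Every *mdx5cv* muscle was below every WT muscle, but WT replicate 4 and *mdx5cv* replicate 4 were close. The mean went from 107 ± 22.5 to 48.3 ± 15.9 (SD, n = 4), a difference of -1.16 ± 0.24 on the log2 scale (SE, limma adjusted p = 0.00173). *Bcl2* lies on chromosome 1 from 106538178 to 106714274, minus strand, and the gene on the opposite strand that shares 558 bases with its exons, *D630008O14Rik*, is listed at 0 in all 8 muscles. Endothelial markers, which mark cells other than fibers, also moved downward with genotype, with 7 of 8 lower at an adjusted p under 0.05 and a summed normalized count between 3859 and 4623 in WT and between 2330 and 2953 in *mdx5cv*. Adipocyte markers had 4 of 6 lower, with sums between 931 and 1530 in WT and between 460.3 and 705 in *mdx5cv*. Most of that sum was from *Fabp4*, and *Plin1* and *Pparg* were not called, at -1.32 and 0.44 on the log2 scale. Erythrocyte markers had 3 of 5 tested lower, with sums that overlapped, and 5 of 10 mature fiber markers were lower. The part of these cell types in the result for *Bcl2* was not tested.

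*Bax* encodes a soluble protein that moves to mitochondria and forms pores there. Normalized counts of this gene were 28.7, 34.0, 36.5 and 50.8 in WT replicates 1 to 4 and 49.1, 60.4, 60.3 and 55.9 in *mdx5cv* replicates 1 to 4. WT replicate 4 was above *mdx5cv* replicate 1, so the groups overlapped by 1 muscle. The mean rose from 37.5 ± 9.48 to 56.4 ± 5.32 (SD, n = 4), and the difference on the log2 scale was 0.60 ± 0.20 (SE, limma adjusted p = 0.0269). This is the weakest call of the 7, since the adjusted p was 0.0798 without WT replicate 1, 0.0533 without WT replicate 2, 0.0558 without WT replicate 3, 0.0623 without *mdx5cv* replicate 2, 0.0663 without *mdx5cv* replicate 3 and 0.0570 in DESeq2. *Bax* lies on chromosome 7 from 45461697 to 45466898, minus strand. The annotated gene *Gm45808* shares 192 bases (12.2%) of its exons on the same strand and had a normalized count of at most 1.10.

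*Bak1* encodes the membrane-bound partner of BAX and had the highest level per length of the 9 genes in both groups. The normalized counts were 126, 126, 149 and 132 in WT replicates 1 to 4 and 199, 158, 170.2 and 209 in *mdx5cv* replicates 1 to 4. The lowest *mdx5cv* muscle was only just above the highest WT muscle. The mean rose from 133 ± 10.9 to 184 ± 23.9 (SD, n = 4), a difference of 0.46 ± 0.13 on the log2 scale (SE, limma adjusted p = 0.0130). *Bak1* lies on chromosome 17 from 27019810 to 27029009, minus strand, and 437 bases (18.2%) of its exons lie under exons of an annotated gene named *Ggnbp1* on the opposite strand. That gene went the other way, with normalized counts between 116 and 148 in WT and between 62.3 and 96.2 in *mdx5cv*. A second annotated gene of the same name, also on the opposite strand, shares 177 bases (7.35%) of the *Bak1* exons. Its normalized counts were between 14.9 and 30.7 in WT and between 7.19 and 14.8 in *mdx5cv*.

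The ratios of *Bax* and *Bak1* to *Bcl2* within a muscle do not depend on how the libraries were scaled. The ratio of *Bax* to *Bcl2* normalized counts was 0.240, 0.274, 0.333 and 0.686 in WT replicates 1 to 4 and 1.43, 1.08, 1.68 and 0.833 in *mdx5cv* replicates 1 to 4. The ratio of *Bak1* to *Bcl2* was 1.06, 1.02, 1.36 and 1.79 in WT and 5.81, 2.85, 4.72 and 3.12 in *mdx5cv*. Neither ratio overlapped between the groups, and in both the WT muscle nearest to *mdx5cv* was replicate 4, which had the lowest *Bcl2* of the WT muscles. These ratios were formed from genes with known directions and were given no test.

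**Figure D3:**
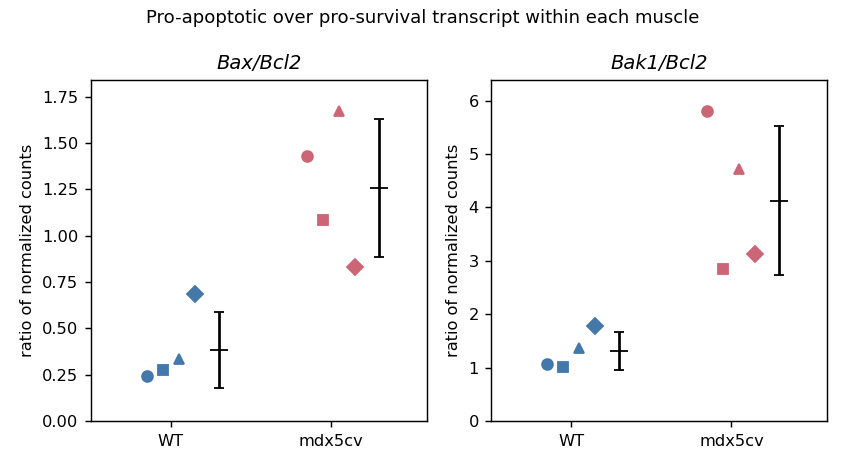
Ratio of the normalized counts of *Bax* to *Bcl2* and of *Bak1* to *Bcl2* (vertical axes, from 0) in each muscle, with 1 marker shape per replicate number and the mean with its SD in black. For *Bax* over *Bcl2* the WT muscles lie between 0.240 and 0.686 and the *mdx5cv* muscles between 0.833 and 1.68.

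*Casp12*, a caspase of rodents that has been linked to stress of the endoplasmic reticulum and stands in the gene cluster of the inflammatory caspases, was the 1 gene tested that was not called. Normalized counts of this gene were 119, 136, 102 and 98.5 in WT replicates 1 to 4 and 91.7, 126, 101 and 85.5 in *mdx5cv* replicates 1 to 4. The groups were interleaved. The log2 fold change was -0.17, with a 95% interval of -0.52 to 0.17 (adjusted p = 0.414 from limma), so that a rise or a fall by the size seen for *Mlkl*, *Gsdmd* or *Bcl2* lies outside the interval. With libraries scaled to equal totals its log2 fold change was 0.18. *Casp12* lies on chromosome 9 from 5345430 to 5373032, plus strand.

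Levels of different genes were compared as normalized count per kilobase of annotated exon. In WT the order was *Bak1* (55.5 ± 4.55), *Casp12* (29.7 ± 4.52), *Bax* (23.8 ± 6.02), *Gsdmd* (16.2 ± 4.02), *Casp8* (15.8 ± 4.04), *Bcl2* (11.7 ± 2.46), *Ripk1* (10.4 ± 1.20), *Mlkl* (5.33 ± 2.10) and *Ripk3* (1.65 ± 1.52) (SD, n = 4). Only *Bak1* and *Ripk1* were separated from the next gene in this order, and every other gene overlapped with the gene after it over the 4 muscles, down to *Mlkl*. In *mdx5cv* the order was *Bak1* (76.6 ± 9.93), *Bax* (35.8 ± 3.37), *Gsdmd* (35.6 ± 4.10), *Casp8* (33.2 ± 12.0), *Casp12* (26.3 ± 4.69), *Ripk1* (15.6 ± 2.70), *Mlkl* (14.3 ± 4.25), *Ripk3* (6.12 ± 1.61) and *Bcl2* (5.27 ± 1.73). Here *Bak1*, *Casp12* and *Mlkl* were separated from the next gene and the others were not. *Bcl2* was sixth by mean in WT, where its range of 8.10 to 13.5 per kilobase overlapped with that of *Mlkl* (3.48 to 8.28), and last in *mdx5cv*, where it overlapped with *Ripk3*. Exon lengths are those of all annotated transcripts joined, so a gene that uses short transcripts in muscle appears lower than it is.

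Among the 4 *mdx5cv* muscles, replicate 4 had the highest value for 7 of the 9 genes, *Bcl2* included, and the lowest for 1, *Casp12*. It also had the highest summed macrophage markers, with a normalized count of 9606 against 3995 to 5537 in the other *mdx5cv* muscles, and the lowest summed mature fiber markers. As log2 deviations from the WT mean, *Ripk1* was at 0.91 in this muscle and between 0.36 and 0.58 in the others, and *Casp8* was at 1.68 and between 0.63 and 1.08. *Gsdmd* was at 1.35 and between 0.95 and 1.14. Without replicate 4 the 7 calls were kept, with log2 fold changes of 0.47 for *Ripk1*, 1.23 for *Mlkl*, 1.07 for *Gsdmd*, 0.61 for *Bax*, 0.39 for *Bak1* and -1.33 for *Bcl2*. Markers of T, B and NK cells were also higher in *mdx5cv*, with a summed normalized count between 63.0 and 91.0 in WT and between 423 and 1124 in *mdx5cv*, most of it from *Ptprc*, and so were 6 of 8 fibroblast markers, with sums between 5500 and 8287 in WT and between 17836 and 31889 in *mdx5cv*. Most of that rise was from *Col1a1* and *Col3a1*, while *Dcn* and *Pi16* were not called, at -0.24 and -0.01 on the log2 scale. Of 7 neutrophil markers only *Csf3r* reached the minimum for the test, with a mean of 6.02 in WT and 52.9 in *mdx5cv*, and it carried the rise of their sum from a range of 4.58 to 14.3 to a range of 29.7 to 98.3. The other neutrophil markers overlapped between the groups, with *S100a9* at 1.91 and 2.05, *Ly6g* at 0 in every *mdx5cv* muscle and *Elane* at 0 in all muscles. The part of these cell types in the results for the 9 genes was not tested.

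**Figure D4:**
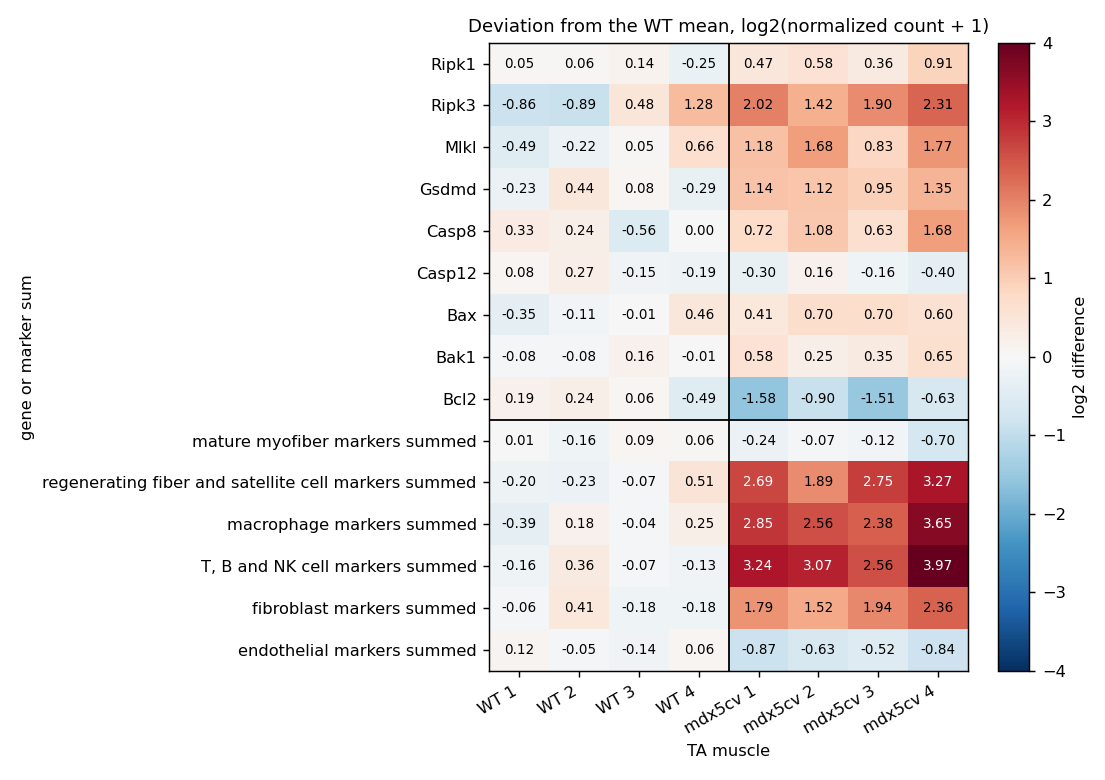
Log2(normalized count + 1) of each of the 9 genes and of 6 summed marker lists (rows) in each muscle (columns), as the difference from the WT mean, with red above and blue below it and the value printed in each cell. *Casp8* is at 1.68 in *mdx5cv* 4, where the macrophage sum is at 3.65, and the macrophage sum is at least at 2.38 in every *mdx5cv* muscle.

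The promoters of the genes were searched for a few short motifs because 6 of the genes rose together. The RefSeq table (GRCm38.p6) held 9 promoters for 8 of the 9 genes, 2 of them for *Ripk1*, and *Gsdmd* had no entry. The 250 bases before each start were searched on both strands for TTCNNNGAA, the palindromic core of the gamma-interferon activated site bound by STAT factors, for GAGGAAGT, a core of the site of the myeloid factor PU.1, for the interferon-stimulated response element (GAAA, 2 bases of any kind, GAAA) and for the core of a p53 site (CATG, 6 bases of any kind, CATG). The first was found in 2 of the 9 promoters and in 7.02% of 32851 promoters, the second in 1 of the 9 and in 2.44%, and the last 2 in none of the 9 and in 2.98% and 0.490%. Starts are those of RefSeq, which can differ from the gene ends given above. The 5 matches are shown in windows of 30 bases with the motif in capitals, since they show how few of the genes share one.
Ripk1, chr13:34002756-34002785, plus strand, 108 bases before the start: agaagctggtTTCCCGGAAggggcggaggc
Ripk1, chr13:34002844-34002873, plus strand, 11 bases before the start: gcgggcgggacttcaaacgTTCCCGGAAat
Casp12, chr9:5345364-5345393, plus strand, 102 bases before the start: ctggttgactTTCTGGGAAaagagcaggag
Casp12, chr9:5345430-5345459, plus strand, 36 bases before the start: attggtatgtTTCTGGGAAggaaaggcaca
Bak1, chr17:27028631-27028660, minus strand, 22 bases before the start: ggccaccgagaACTTCCTCtagagggagct
The TTCNNNGAA matches are at *Ripk1*, which rose, and at *Casp12*, which was not called. A match is a description of letters and not of binding.

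Other genes of the same routes were taken from 4 lists with 72 genes, all in the table, of which 57 were tested. In *mdx5cv* 28 of the 57 were higher and 4 were lower at an adjusted p under 0.05, against 20.9% and 20.1% of all genes tested, and 25 were not called. With a minimum absolute log2 fold change of 1, 16 were higher, against 10.3% of all genes tested, and none was lower in limma, edgeR or DESeq2, also at an unadjusted p under 0.05 in limma. Of the 16, 10 had a mean normalized count under 10 in WT and so reached the minimum for the test only through their level in *mdx5cv*, and for this reason the counts and medians are given as a description. The median log2 fold change of the 57 was 0.45.

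Of the other BCL2 family genes 11 of 16 were tested, with 5 higher, 1 lower and 5 not called. Over all genes tested 20.9% were higher and 20.1% lower at an adjusted p under 0.05. The pro-survival genes *Mcl1* and *Bcl2l1*, which encodes BCL-XL, had log2 fold changes of 0.03 and 0.05 and were not called, whereas *Bcl2l2*, which encodes BCL-W, was lower at -0.42 (adjusted p = 0.0214 from limma). *Bcl2l1* was between 94.0 and 223 in WT and between 144 and 159 in *mdx5cv*, and *Mcl1* between 1339 and 1922 and between 1482 and 1694, all as normalized counts. The genes that rose were *Pmaip1*, *Bid*, *Bbc3* and *Bcl2l11*, which encode the BH3-only proteins NOXA, BID, PUMA and BIM that trigger BAX and BAK1, together with *Bok*, a relative of these 2. *Bcl2l11* averaged 93.8 ± 8.85 normalized counts in WT muscle against 184 ± 24.7 in *mdx5cv*, a difference of 0.96 ± 0.14 on the log2 scale (SE, limma adjusted p = 0.000136). *Pmaip1* did not exceed 1.15 in any WT muscle and reached 16.0 or more in every *mdx5cv* muscle. The mean normalized counts of *Pmaip1*, *Bid* and *Bbc3* in WT were 0.56, 4.89 and 8.30. These means were under 10, so these genes reached the minimum for the test only through their level in *mdx5cv*. The BH3-only genes *Bad*, *Bmf* and *Bik* were not called, at 0.25, 0.18 and 0.31 on the log2 scale. *Hrk*, also of this kind, was under the minimum, with a lower mean in *mdx5cv* and groups that overlapped. The genes in this paragraph were named after their values were seen.

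Among the caspases, the genes of the apoptosome and the inhibitors of apoptosis, 17 of 18 were tested, with 7 higher, 2 lower and 8 not called. At the same adjusted p under 0.05, 20.9% of all genes tested were higher and 20.1% lower. Of the 17, 2 had a mean normalized count under 10 in WT. *Apaf1*, the scaffold on which caspase 9 is activated, averaged 70.1 ± 9.98 normalized counts in WT muscle against 168 ± 33.7 in *mdx5cv* (SD, n = 4), a difference of 1.24 ± 0.17 on the log2 scale (SE, limma adjusted p = 8.72e-05). The groups did not overlap for this gene. The 2 lower genes were named after their values were seen. *Cycs*, which encodes cytochrome c of the respiratory chain and partner of APAF1, had a log2 fold change of -0.91 and *Endog*, a mitochondrial nuclease, one of -0.74. *Xiap*, which encodes an inhibitor of caspases, was also named in this way, and had a log2 fold change of 0.02 and was not called. The other inhibitor genes of the list, named in the same way, differed. *Birc3* was higher at 0.56 and *Birc5* at 4.25, while *Birc2* was not called at -0.28. The WT mean of *Birc5* was 0.26 normalized counts, so it reached the minimum for the test only through its level in *mdx5cv*.

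Of the genes of the death receptor complexes and upstream of necroptosis 20 of 22 were tested, with 8 higher, 1 lower and 11 not called. Over all genes tested 20.9% were higher and 20.1% lower at an adjusted p under 0.05. In either direction 9 of the 20 were called, and 40.9% of all genes tested. *Zbp1*, a sensor of Z-form nucleic acids that engages RIPK3, averaged 4.68 ± 1.07 normalized counts in WT muscle against 47.8 ± 24.3 in *mdx5cv* (SD, n = 4), a difference of 3.0 ± 0.35 on the log2 scale (SE, limma adjusted p = 3.39e-05). The WT mean of *Zbp1* was under 10, so this gene reached the minimum for the test only through its level in *mdx5cv*. *Tlr4*, the receptor for bacterial lipopolysaccharide, which can also lead to necroptosis, differed by 1.11 ± 0.19 on the log2 scale (SE, limma adjusted p = 0.000528). *Cflar*, which encodes the caspase 8 partner c-FLIP, *Fadd*, the adaptor between them and death receptors, and *Fas*, the death receptor itself, were not called, at 0.17, 0.45 and -0.35. The lower gene was *Map3k7*, which encodes the survival kinase TAK1, at -0.53. The receptor gene *Tnfrsf1a* was higher at 0.82, while *Tnf* itself had a mean normalized count under 10. The genes other than *Zbp1* and *Tlr4* were named after their values were seen.

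Of the inflammasome and pyroptosis genes 9 of 16 were tested. Of these 8 were higher, against 20.9% of all genes tested, and 6 of the 8 had a mean normalized count under 10 in WT. The minimum for the test thus in part sets the median of the 9, which was 2.78. *Ninj1*, which encodes the protein that ruptures the membrane in the last step of lysis, was not called at 0.25. The genes with the largest rises under the naming rule were *Nlrp1b*, *Naip2* and *Naip5*, all of which encode sensors of inflammasomes, with log2 fold changes of 3.16, 3.06 and 2.91. *Naip2* averaged 8.81 ± 2.68 normalized counts in WT muscle against 82.2 ± 31.3 in *mdx5cv* (SD, n = 4). *Casp1* and *Casp4*, which encode the caspases that cut gasdermin D, had log2 fold changes of 2.50 and 1.48, against 1.14 for *Gsdmd*. *Casp1* was between 2.29 and 14.3 in WT and at least 30.6 in *mdx5cv*, and *Gsdme*, another gasdermin gene, was under the minimum at 3.90 ± 2.70 in WT and 6.68 ± 4.02 in *mdx5cv*. *Ninj1*, *Casp1*, *Casp4* and *Gsdme* were named after their values were seen.

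**Figure D5:**
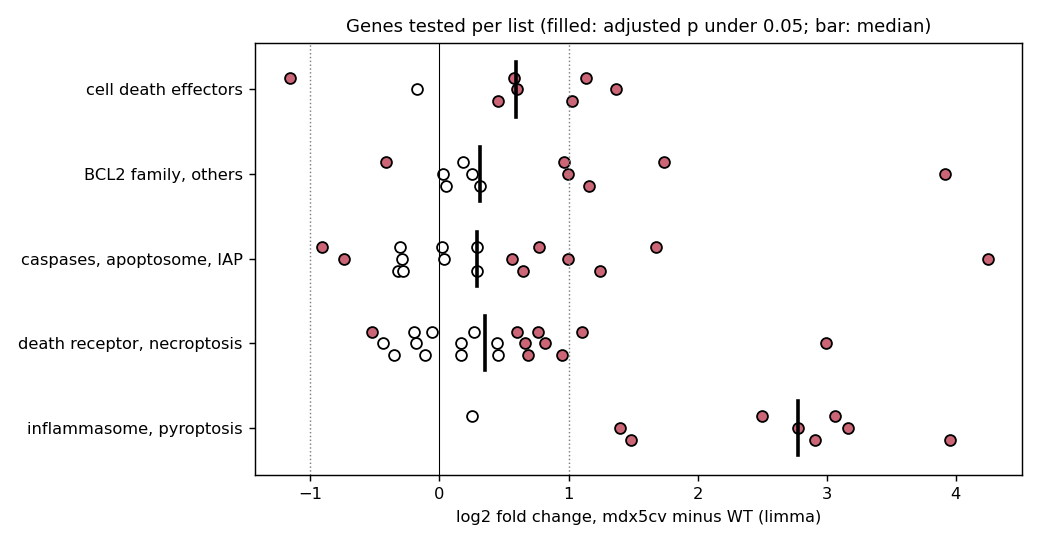
Log2 fold change of *mdx5cv* against WT (horizontal axis) for the genes tested among the 9 effectors and in each of the 4 other lists, with filled circles at an adjusted p under 0.05 and a bar at the median. The medians are 0.59 for the effectors and 0.31, 0.29, 0.36 and 2.78 for the lists from top to bottom, the last over 9 genes of which 6 had a mean normalized count under 10 in WT.

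For each gene tested, the gene with the most similar pattern over the 8 muscles was sought among all genes tested by Pearson's correlation of the log2 values. These were *Slf2* for *Ripk1* (r = 0.985), *Dusp5* for *Mlkl* (r = 0.993), *Tmem164* for *Gsdmd* (r = 0.998), *Zfp90* for *Casp8* (r = 0.989), *Exosc3* for *Casp12* (r = 0.981), *Uck2* for *Bax* (r = 0.978), *Kif3a* for *Bak1* (r = 0.992) and *Mpp2* for *Bcl2* (r = 0.990). The 8 muscles fall into 2 groups, so a gene that differs between them tends to correlate with others that do. Genes with r over 0.9 numbered 930 for *Gsdmd*, 138 for *Bcl2*, 124 for *Bax* and 30 for *Casp12*. Among the effectors themselves, *Ripk1* and *Gsdmd* had the highest correlation (r = 0.91) and *Mlkl* and *Bax* the next (r = 0.90), over the same 8 muscles.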

How the data were processed

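Bulk RNA-seq of 4 WT and 4 *mdx5cv* TA muscles was analysed, grouped by the labels. The deposited values are a signal, which the authors made by dividing the read count of each gene by a size factor for the library (normalized counts), for all 55401 genes. The submitters' processing notes list Trim Galore 0.6.4, STAR 2.6.0c, SAMtools 1.9, featureCounts and DESeq2 1.26.0 with mm10, and the counting options are not given in the sources used here. Whole reads were recovered from 100% of the values (within 0.01 of a read). Replicates differed beyond sampling noise (chi-square of 8.59 to 38.4 per degree of freedom), and none is a duplicate.

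The genotypes were tested against each other in limma 3.58.1 (R 4.3.3) (variance trend, two-sided, Benjamini-Hochberg) on log2(normalized count + 1) over the 13677 genes with a mean of at least 10. edgeR 4.0.16 and DESeq2 1.42.0 on the recovered reads were alternatives, as were other scalings, pseudocounts of 0.1 and 10, other filters, no variance trend, a replicate block and leaving out each replicate. The scripts were tested on simulated data. The 9 genes, the gene lists and the tests were chosen with earlier results of these data known. Genes were named by a rule, which takes the 9 genes, *Dmd*, up to 3 rises and 3 falls per list past the threshold with a mean of at least 20, and the most similar gene for each. Others are marked in the text, and 1 gene that the rule takes is not reported here. Coordinates and exon lengths are from GENCODE M21, which held 55141 of the gene IDs. The labels do not say that the muscles are of separate mice, so p-values measure only the spread between these samples, which may be technical.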

Additional observations from a re-analysis of the deposited data

How the results depend on the processing

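All 7 called genes kept their direction under the alternatives run, and *Ripk1*, *Mlkl*, *Gsdmd*, *Casp8*, *Bak1* and *Bcl2* kept an adjusted p under 0.05 in each that tested them. *Bax* kept it in 12 of 19, and its adjusted p, besides the values given above, was 0.0512 with libraries centred on the median. Scaling moved the sizes, since equal totals raised the median over all genes from 0.00 to 0.36 on the log2 scale, left 0 of the effectors lower by 1 or more on that scale (*Bcl2* at -0.80), turned *Casp12* to 0.18 and made 26 genes of the 4 lists higher by at least that much. Centring on the median moved that median to -0.09 and made 1 gene of the lists lower by 1 or more. A pseudocount of 10 left 0 effectors higher with a log2 fold change of at least 1, and requiring 10 in each muscle left 3 list genes higher by 1 or more, since 40 were then tested. Leaving out each replicate gave from 5 to 6 higher and 1 lower effectors at an adjusted p under 0.05, from 2 to 3 higher and 1 lower with the fold criterion as well, and from 14 to 19 higher list genes by both criteria. The replicate block gave 6 higher and 1 lower effectors, the counts without the block. Correlations of same-numbered muscles ranged from 0.03 to 0.15, with 1 of 4 over 0.1, and not every muscle correlated best with its own number. Correlations this small, from 4 muscles per group, cannot decide whether the numbers pair the muscles. Depth limits *Ripk3* and *Mlkl* most, with as few as 1 and 7 reads in a WT muscle.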

Other observations

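Of the genes of the 4 lists under the minimum for the test, *Fasl*, *Bcl2a1b*, *Il18* and *Nlrc4* did not overlap between the groups. The others overlapped or had no read, with *Il1b*, *Nlrp3* and *Tnf* among those that overlapped. How often genes under the minimum do not overlap over the whole series was not computed. *Fasl*, which encodes the ligand of the death receptor FAS, had no read in any WT muscle and a normalized count of at most 2.40 in *mdx5cv*. *Bcl2a1b*, a pro-survival gene of leukocytes with near-identical copies that can share its reads, was at most 2.29 in WT and between 4.72 and 15.2 in *mdx5cv*. *Il18*, a cytokine released in pyroptosis, was at 3.02 ± 3.03 in WT and 10.9 ± 0.987 in *mdx5cv*, and *Nlrc4*, an inflammasome scaffold, at 2.50 ± 1.87 and 14.2 ± 3.98 (SD, n = 4). These values rest on few reads and were not tested, and the genes were named after their values were seen. *Casp14* and *Gsdmc* had no read in any of the 8 muscles. In the 36 sets of 4 samples checked, which are the 9 effectors and 9 summed marker lists in each group, Dixon's test marked no muscle as an outlier, and about 1.8 marks are due to chance at this level.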
